A study of Mus musculus with 2 samples.

Results

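A set of 10 mouse lysosomal protease genes, listed by name, was followed in single tdTomato-positive spinal cord cells. These were the cathepsin genes Ctsa, Ctsb, Ctsc, Ctsd, Ctsf, Ctsh, Ctsl, Ctss and Ctsz and the legumain gene Lgmn. All 10 were found by their symbol among the 27998 genes of both libraries, and all 10 were among the 9066 genes with at least 20 transcripts counted over both.

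Cathepsins and legumain break down proteins inside endosomes and lysosomes. Most are made as inactive precursors, carry a sugar tag that routes them to the lysosome and become active as the compartment acidifies. In microglia and other phagocytes they digest engulfed material, trim the invariant chain and antigens for presentation on MHC class II, and cut endosomal Toll-like receptors into their signalling form. Cathepsins B, C, F, H, L, S and Z are cysteine proteases of the papain family, cathepsin D is an aspartic protease, cathepsin A is a serine carboxypeptidase, and legumain is a cysteine protease that cuts after asparagine. Cystatins are small proteins that block the papain-family enzymes.

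There were 2 libraries, 1 per group, both from mice of the strain Cx3cr1-CreER::Rosa26-tdTomato, background strain C57BL/6J. Every mouse had been given 2 injections of 1 mg of 4-hydroxytamoxifen in postnatal week 4, which turns on tdTomato for good in cells that express Cx3cr1, chiefly microglia and other tissue macrophages. Cords were taken 4 weeks after tamoxifen, from uninjured age-matched mice or 5 days after injury with lysolecithin, a lipid that strips myelin. Collagenase digestion lasted 1 h at 37 °C, and tdTomato-positive cells were then sorted. The labels give neither the number nor the sex of the mice in a library.

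After filtering, 695 uninjured cells had a median of 3003 unique molecular identifiers (UMIs, each standing for 1 captured transcript) and 577 injured cells a median of 4396. They shared no cell barcode. All 10 microglial markers examined were detected in both libraries, and their summed level, as UMIs per 1000000 UMIs of the library (CPM), was 26374 CPM uninjured and 16228 CPM injured. Of 7 monocyte markers 5 were detected in uninjured and 6 in injured cells, summing to 13.4 and 191 CPM. Of those 590 injured UMIs 522 were of Fn1, and Ly6c2 was at 0 in both libraries. Of 8 border-associated macrophage markers all were seen in uninjured cells and 7 in injured cells, which lacked Cd163 (143 and 180 CPM). Xist UMIs without Y-linked UMIs marked 6 uninjured and 213 injured cells, and Y-linked UMIs alone 235 and 147. With 1 library per group there is no replicate error, so no difference below has a test. Each interval is the exact 95% interval for counting error only, and all comparisons are between these libraries.

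Taken as a family, the 10 genes held 78245 of 2093084 uninjured UMIs and 154536 of 3095511 injured UMIs. That was 3.74% of uninjured and 4.99% of injured transcripts. In single cells the family's share had a median of 3.64% among uninjured cells (lowest 0.120%, highest 7.98%) and 4.41% among injured cells (0.236% to 11.6%), so the ranges over cells overlapped widely.

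The make-up of the family differed between the libraries. Ctss and Ctsd gave 31.7% and 28.8% of the family's UMIs in uninjured cells, followed by Lgmn with 15.7% and Ctsb with 7.61%. In injured cells Ctsd gave 37.2%, Ctsb 17.5%, Ctss 16.4% and Lgmn 10.4%. These are shares of UMIs read at the 3′ end, where each transcript counts once whatever its length, so no division by length was made, and they also depend on how well each transcript's end is captured. By UMIs among all genes, Ctss held place 5 when uninjured and place 13 when injured, and Ctsb places 37 and 9.

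Cathepsin B and cathepsin Z, both papain-family enzymes that trim peptides from their carboxyl end (Ctsb also cuts within proteins), were the members past 2-fold upwards in injured cells. Ctsb was at 2844 CPM (2772 to 2917) uninjured and 8721 CPM (8617 to 8826) injured, a 3.07-fold difference (log2 ratio 1.62, 1.58 to 1.66). Ctsz was at 1959 CPM (1900 to 2020) and 3966 CPM (3896 to 4037), a 2.02-fold difference (log2 1.02, 0.97 to 1.07). Ctsz thus stood at the 2-fold line and fell short of it in several other settings, for example at log2 0.86 with every cell thinned to 1500 UMIs, whereas Ctsb passed it in all 14.

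Ctsc and Ctsd were higher by less than 2-fold. Ctsc encodes cathepsin C, which removes dipeptides and activates serine proteases of granules, and it was at 741 CPM (705 to 779) in uninjured and 1414 CPM (1373 to 1457) in injured cells (log2 0.93, 0.85 to 1.02). Its log2 ratio was 1.08 with TMM factors and 1.12 with DESeq2 size factors, past 2-fold. Ctsd, the main aspartic protease of the lysosome, was at 10773 CPM (10633 to 10915) and 18559 CPM (18407 to 18711), which is 1.72-fold higher (log2 0.78, 0.76 to 0.81). It was the third gene by UMIs in the injured library.

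Smaller differences were seen for Ctsl, Ctsa and Ctsh. Ctsl, an endopeptidase of the lysosome, was at 1351 CPM (1301 to 1401) in uninjured and 1760 CPM (1714 to 1807) in injured cells (log2 0.38, 0.32 to 0.45). Ctsa, which also shields the lysosomal enzymes beta-galactosidase and neuraminidase in a complex, was at 789 CPM (752 to 828) and 1013 CPM (978 to 1049) (log2 0.36, 0.27 to 0.45). Ctsh, an aminopeptidase, was at 983 CPM (941 to 1027) and 1062 CPM (1026 to 1099) (log2 0.11, 0.03 to 0.19).

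Ctss and Ctsf were lower in the injured library, and Lgmn was lower by CPM but not with DESeq2 size factors (log2 0.005). Cathepsin S stays active at neutral pH and carries out the last cuts of the invariant chain. Ctss was at 11864 CPM (11717 to 12012) in uninjured and 8163 CPM (8062 to 8264) in injured cells, 1.45-fold lower (log2 −0.54, −0.56 to −0.51). Lgmn was at 5859 CPM (5756 to 5963) and 5168 CPM (5088 to 5249), with a log2 ratio of −0.18 (−0.22 to −0.15) by CPM, so the direction for this protease, which activates other lysosomal proteases by cutting their precursors, depended on the scaling. Ctsf, which can also cut the invariant chain, was the least counted member, at 219 CPM (199 to 240) and 97.2 CPM (86.6 to 109). It was 2.25-fold lower (log2 −1.17, −1.38 to −0.96) and fell short of 2-fold with DESeq2 size factors (log2 −0.98) and as a mean over per-cell CPM (−0.94).

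**Figure D1:**
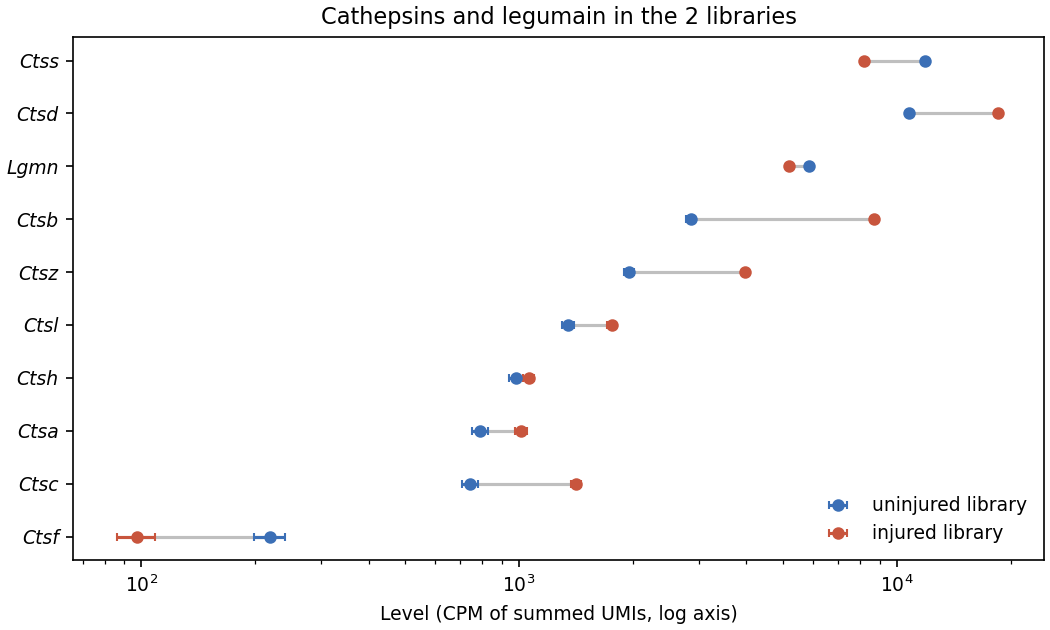
Level of each member in the uninjured (blue) and injured (red) library in CPM of summed UMIs on a log axis; bars are exact 95% Poisson intervals and grey lines join the 2 libraries, 1 per group. Ctsb moves from 2844 to 8721 CPM, while Ctss (11864 to 8163 CPM) and Ctsf (219 to 97.2 CPM) lie lower in the injured library.

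By size, 2 of the 10 members passed 2-fold upwards in injured cells, against 7.22% of all 9066 measured genes. Past 2-fold downwards was 1 member, against 11.5% of all measured genes. The members' median log2 ratio was 0.37, beside −0.15 for all measured genes and 0.11 for the 943 genes with at least as many UMIs as Ctsf, of which 6.68% were past 2-fold upwards and 6.79% downwards. TMM and DESeq2 factors raised every log2 ratio by 0.15 and 0.19. With TMM factors 3 members were past 2-fold higher and 1 past 2-fold lower (8.79% and 8.67% of all measured genes). With DESeq2 factors the members' counts were 3 and 0 (9.41% and 7.86%). A scaling moves all genes alike, so the members' order and their distance from the median gene stayed the same.

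Depth per cell differed between the libraries, so cells were also thinned at random to 1500 UMIs, which 604 uninjured and 567 injured cells reached (91 and 10 cells were shallower). Ctsb had a median of 4 UMIs per thinned cell (quartiles 2 and 5) in uninjured and 10 (6 and 15) in injured cells. Ctsd had a median of 14 (10 and 20) and 20 (10 and 35.5). The lower quartile of Ctsd was thus the same in both libraries and the upper quartile was not: the injured cells spread from levels seen in uninjured cells to a maximum of 105 UMIs, against 59. The variance of Ctsb over thinned cells was 1.56 times its mean in uninjured and 4.59 times in injured cells. Ctss spread downwards instead, with medians of 17 (13 and 22) and 13 (8 and 19). Lgmn was at 9 (6 and 11) and 7 (5 and 10). The 10 cells with most UMIs of a member held between 3.67% and 11.6% of its UMIs in either library.

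**Figure D2:**
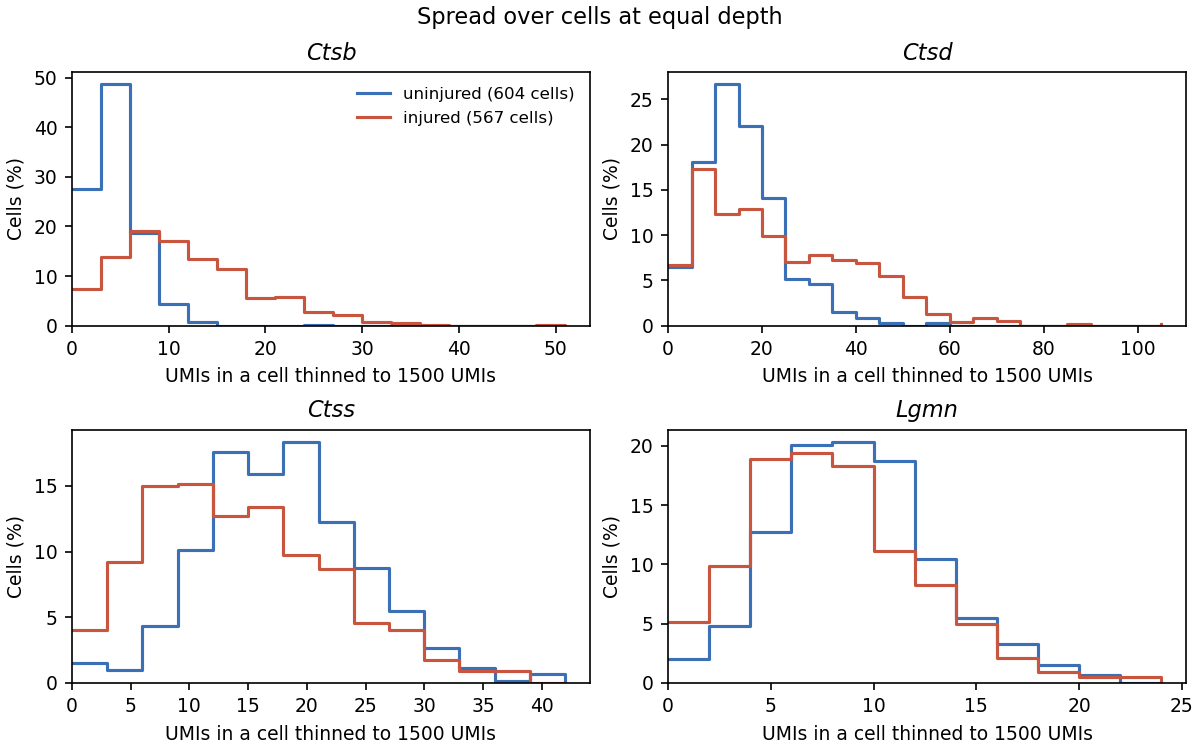
Share of cells (%) by the number of Ctsb, Ctsd, Ctss and Lgmn UMIs in cells thinned to 1500 UMIs, 604 uninjured (blue) and 567 injured (red) cells. Injured cells extend to the right for Ctsb and Ctsd, whose upper quartiles are 15 and 35.5 against 5 and 20, and to the left for Ctss.

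The order of members within a cell also differed between the libraries. At 1500 UMIs per cell, Ctsd exceeded Ctss in 36.4% (32.6 to 40.4%) of the uninjured cells, against 60.0% (55.8 to 64.0%) of the injured. Ctsb exceeded Ctss in 1.32% (0.574 to 2.59%) against 40.0% (36.0 to 44.2%). Ctsb exceeded Lgmn in 10.8% (8.40 to 13.5%) against 63.3% (59.2 to 67.3%).

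The most counted members were seen in nearly every cell, so their shares of cells with a UMI separated the libraries little. After thinning, Ctsd, Ctss, Lgmn and Ctsb had a UMI in 96.7% to 100% of cells of either library. The share for Ctsc was 61.8% (57.7 to 65.6%) uninjured against 79.7% (76.2 to 83.0%) injured, and for Ctsf 27.6% (24.1 to 31.4%) against 13.1% (10.4 to 16.1%). At full depth Ctsc reached 80.4% and 94.6%, and Ctsf 45.3% and 37.3%. For Ctsa the thinned shares were 65.9% and 73.0%, but 85.5% and 84.6% at 2500 UMIs per cell, which 462 and 514 cells reached. Both the depth and the set of cells thus differed between these settings. In the 4 uninjured barcodes with endothelial markers (median 1737 UMIs, against 3003 in all uninjured cells), 3 had a Ctss UMI, at 531 CPM beside 11864 CPM in the whole library. Ctsf had 0 UMIs and Ctsc 1 barcode with a UMI there. Microglial markers in these barcodes summed to 6112 CPM. In the injured library 2 barcodes had endothelial markers, and there Ctss was at 6250 CPM and microglial markers at 7175 CPM.

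Cells of both libraries were clustered together without the 10 members among the genes used, which gave 10 clusters, numbered by size. Clusters 1 (leading genes Ddit4, Cd27 and Rnd1), 3 (Il16, Serpinf1 and P2ry13), 5 (Bmp2k, Zfp691 and Kdm6b) and 6 (Batf, Hspa1a and Extl2) were mostly uninjured cells. Cluster 2 (Tnfrsf12a, Rrad and Nab2) held 48 uninjured and 147 injured cells and cluster 8 (Idh3b, Acot13 and Hebp1) 31 and 36. Injured cells made up nearly all of cluster 4 (Igf1, Lpl and Fn1; 2 and 150 cells), the interferon-responsive cluster 7 (Rsad2, Ifit3 and Ifit3b; 2 and 85), cluster 9 (H2-Ab1, Ms4a7 and Pf4; 9 and 45) and the dividing cluster 10 (Birc5, Pbk and Ube2c; 1 and 43). Cluster 4 had a monocyte marker (Fn1) and cluster 9 a pair of border-associated macrophage markers (Ms4a7 and Pf4) among its 10 leading genes, and both were left unnamed. The other 8 had no such marker there and had microglial markers detected, and were called microglia-like by that rule. Only cluster 3 had a microglial marker among its 10 leading genes (P2ry12). The level of microglial markers, 14453 to 31806 CPM in sum over the 8, was not part of the rule. That level was 15255 CPM in cluster 4, within the range of the 8, and 10376 CPM in cluster 9. A cluster mostly of 1 library may be that library rather than a kind of cell.

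Levels of Ctsb, Ctsd and Ctsz varied over the injured clusters and were highest in clusters 4 and 9. Ctsb was at 11346 CPM (11158 to 11535) in injured cluster 4 and 12800 CPM (12359 to 13253) in cluster 9, and its lowest injured value was 4416 CPM (3964 to 4904) in cluster 1. Ctsd was at 24115 CPM (23841 to 24391) in cluster 4 and 23632 CPM (23032 to 24245) in cluster 9, values whose intervals overlapped. In injured clusters 1, 5 and 2 Ctsd was at 9211, 9425 and 10674 CPM, within or just under the 9510 to 12122 CPM of the uninjured clusters. Ctsz was at 5131 CPM (5005 to 5259) in cluster 4, 4532 CPM in cluster 9, 3897 CPM in cluster 10 and 1885 CPM (1595 to 2213) in cluster 1. Cells of clusters 4 and 10 were the deepest of the injured library, with medians of 8130 and 6779 UMIs. At equal depth of 1500 UMIs the median Ctsd count was 37 in cluster 4 and 13 in cluster 2 of the injured library.

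Ctss and Ctsf had the opposite profile. Ctss was at 5677 CPM (5544 to 5812) in injured cluster 4, 6412 CPM (6101 to 6735) in cluster 9 and 4590 CPM (4347 to 4843) in the dividing cluster 10. In the other injured clusters it was at 10872 to 12229 CPM, beside 11526 to 15652 CPM over the uninjured clusters. Ctsf was at 27.6 CPM (11.9 to 54.3, from 8 UMIs) in cluster 10 and 65.1 CPM (51.6 to 81.0) in cluster 4, against 253 CPM (155 to 391) in injured cluster 1. Lgmn, Ctsl and Ctsh varied least, with a highest over lowest injured cluster of 1.39, 1.37 and 1.46 times. When the members were kept among the clustering genes, however, Ctsl reached 3.46, Lgmn 1.92 and Ctsh 1.53 times. Cluster 10 had the lowest injured level of 4 members, Ctsa (706 CPM), Ctsf, Ctsh (830 CPM) and Ctss, while its Ctsb (6954 CPM) and Ctsc (1530 CPM) lay between the other clusters. Ctsc was highest in the interferon-responsive cluster 7, at 1739 CPM (1615 to 1871).

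**Figure D3:**
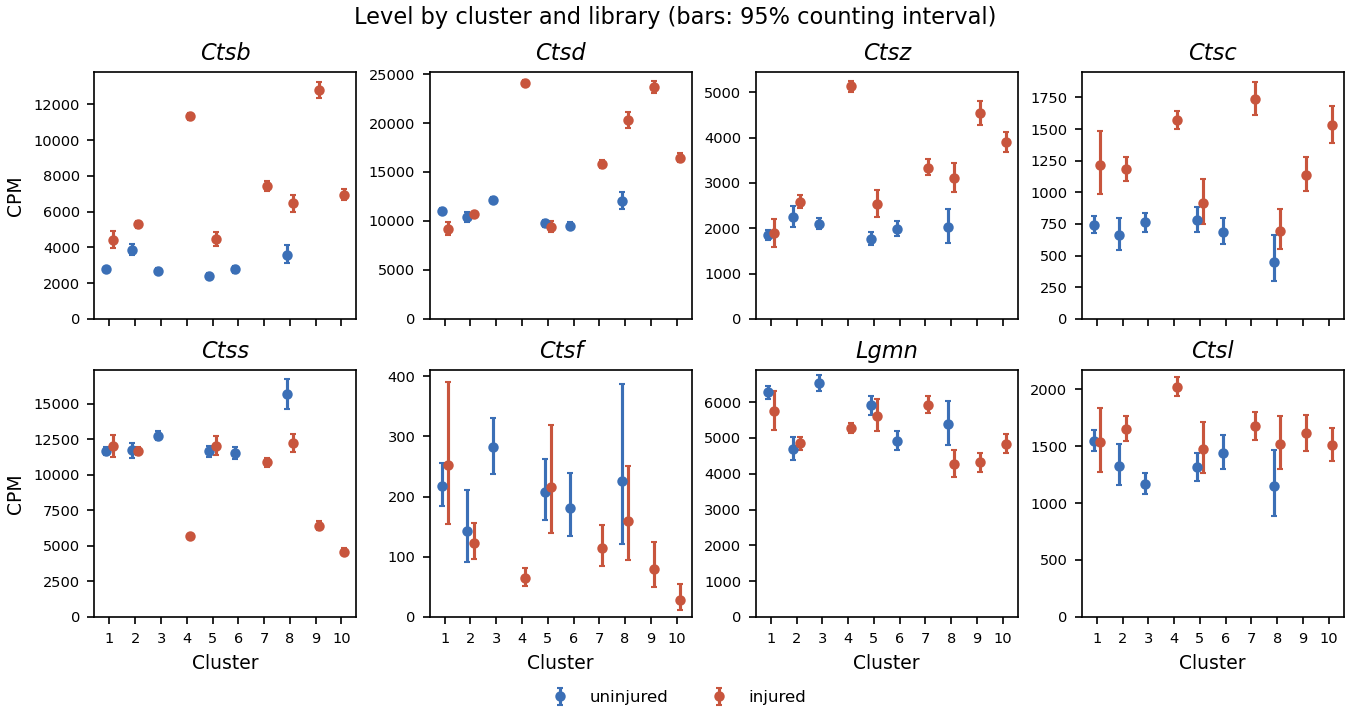
CPM of 8 members by cluster in uninjured (blue) and injured (red) cells, for clusters with at least 20 cells of a library; bars are exact 95% Poisson intervals and each vertical axis starts at 0. Clusters 4, 7, 9 and 10 hold few uninjured cells. Ctss is at 4590 to 6412 CPM in injured clusters 4, 9 and 10 but at 10872 CPM in cluster 7. Ctsb reaches 11346 CPM in cluster 4 and 12800 CPM in cluster 9.

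Clusters 4 and 9 held 33.8% of injured cells, 47.7% of their UMIs, 63.4% of their Ctsb, 61.8% of their Ctsd and 60.5% of their Ctsz UMIs, but 33.9% of their Ctss and 33.2% of their Ctsf UMIs. In the uninjured library they held 1.58% of cells. Without these clusters the log2 ratios were 1.12 for Ctsb, 0.61 for Ctsz, 0.32 for Ctsd, −0.22 for Ctss and −0.84 for Ctsf, while Ctsc stood at 0.87. The members' median was then 0.19, with 1 member past 2-fold higher and 0 past 2-fold lower. With cluster 9 alone left out, the log2 ratios were 1.56 for Ctsb, 0.99 for Ctsz, 0.73 for Ctsd and 0.98 for Ctsc. Ctss was then at −0.53, Ctsf at −1.17 and the members' median at 0.34. Of the monocyte markers, injured cells of clusters 4 and 9 had 411 of 522 injured Fn1 UMIs, 13 of 13 of Ccr2, 3 of 3 of Chil3 and 17 of 27 of S100a4, but 2 of 10 of Plac8 and 1 of 15 of Vcan. Of the border-associated macrophage markers they had 211 of 234 Ms4a7 UMIs, 114 of 127 of Pf4, 13 of 13 of Mrc1, 12 of 12 of F13a1, 5 of 6 of Cbr2 and 3 of 3 of Lyve1, and 89 of 162 of Stab1. These counts pool unlike clusters. Over both libraries the border-associated macrophage markers summed to 153 CPM in cluster 4, with 4 of 8 detected, and to 169 CPM outside it. In cluster 9 they summed to 1356 CPM, with all 8 detected. Monocyte markers summed to 310 CPM in cluster 4 and 258 CPM in cluster 9. The part of other macrophages or monocytes in the ratios over all cells was not tested.

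Clusters 1, 2, 5 and 8 had at least 20 cells of each library, so that injured and uninjured cells could be set side by side within them. Ctsb was higher in injured cells in all 4, with log2 ratios of 0.68 (0.51 to 0.84), 0.45 (0.33 to 0.57), 0.90 (0.73 to 1.06) and 0.85 (0.62 to 1.08). Ctsz was at 0.03 (−0.22 to 0.28) in cluster 1, 0.20 (0.04 to 0.37) in cluster 2, 0.52 (0.31 to 0.72) in cluster 5 and 0.62 (0.31 to 0.94) in cluster 8. Ctsc was at 0.71 (0.37 to 1.02) in cluster 1 and 0.83 (0.54 to 1.13) in cluster 2, with intervals that spanned 0 in clusters 5 and 8. Ctss had ratios near 0 in clusters 1, 2 and 5 (0.04, −0.01 and 0.05, each interval spanning 0) and was at −0.36 (−0.48 to −0.23) in cluster 8. Ctsd was at −0.26 (−0.38 to −0.15) in cluster 1, at 0.04 and −0.05 in clusters 2 and 5 with intervals spanning 0, and at 0.75 (0.63 to 0.87) in cluster 8. The differences in Ctsd and Ctss over all cells were thus not seen in clusters 1, 2 and 5, whereas a smaller Ctsb difference was. Ctsf intervals spanned 0 in all 4 clusters, from 13 to 147 UMIs per library.

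**Figure D4:**
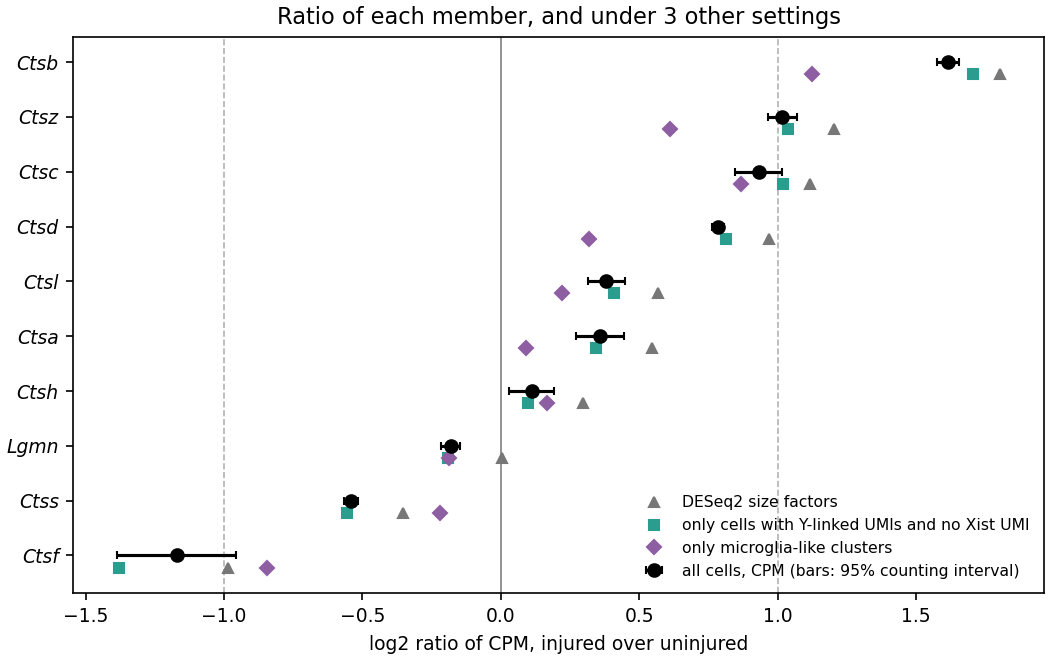
log2 ratio of CPM, injured over uninjured, for each member (black, bars are exact 95% counting intervals), with DESeq2 size factors (grey), in cells with Y-linked but no Xist UMIs (green) and in microglia-like clusters alone (purple); dashed lines mark 2-fold. Ctsb stays right of the 2-fold line in all 4 settings, Ctsd drops from 0.78 to 0.32 in microglia-like clusters, and Lgmn lies at −0.18 by CPM and 0.005 with DESeq2 factors.

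The libraries differed in sex transcripts, so the members were also compared between cells of the injured library with Xist UMIs alone (213) and with Y-linked UMIs alone (147). All 10 log2 ratios, Xist over Y-linked, lay between −0.05 and 0.16. Ctsb was at 9177 CPM in Y-linked and 8848 CPM in Xist cells, Ctsd at 18896 and 18555 CPM, and Ctss at 8084 and 7857 CPM. With Y-linked cells alone in both libraries the injured over uninjured log2 ratios were 1.71 for Ctsb, 0.82 for Ctsd, −0.56 for Ctss and −1.38 for Ctsf. In all cells they were 1.62, 0.78, −0.54 and −1.17. The Ctsb and Ctsd values lay just above the counting intervals of all cells. Cells with neither kind of UMI, 452 uninjured and 200 injured, were not covered by this split.

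Members were also related to each other cell by cell, as Pearson's r of log-transformed UMIs in thinned cells, given without a test since cells of a library share their preparation. Over the 45 pairs r ranged from −0.04 to 0.32 in 604 uninjured cells (median 0.08) and from −0.13 to 0.67 in 567 injured cells (median 0.11). The 3 highest injured pairs joined Ctsb with Ctsd (r = 0.67), Ctsd with Ctsz (0.58) and Ctsb with Ctsz (0.54). In uninjured cells these pairs were at 0.19, 0.18 and 0.12. In uninjured cells the highest pair was Ctsd with Ctss (0.32), which was at −0.13 in injured cells. Within the microglia-like clusters alone (594 uninjured and 373 injured cells) Ctsb with Ctsd was at 0.19 and 0.54, and Ctsd with Ctss at 0.25 and 0.08. Low counts pull r towards 0, and thinned uninjured cells had fewer UMIs of these genes, with means of 4.10 for Ctsb, 15.6 for Ctsd and 2.88 for Ctsz against 11.4, 23.6 and 5.23 in injured cells. The part of these levels in the difference in r was not tested.

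**Figure D5:**
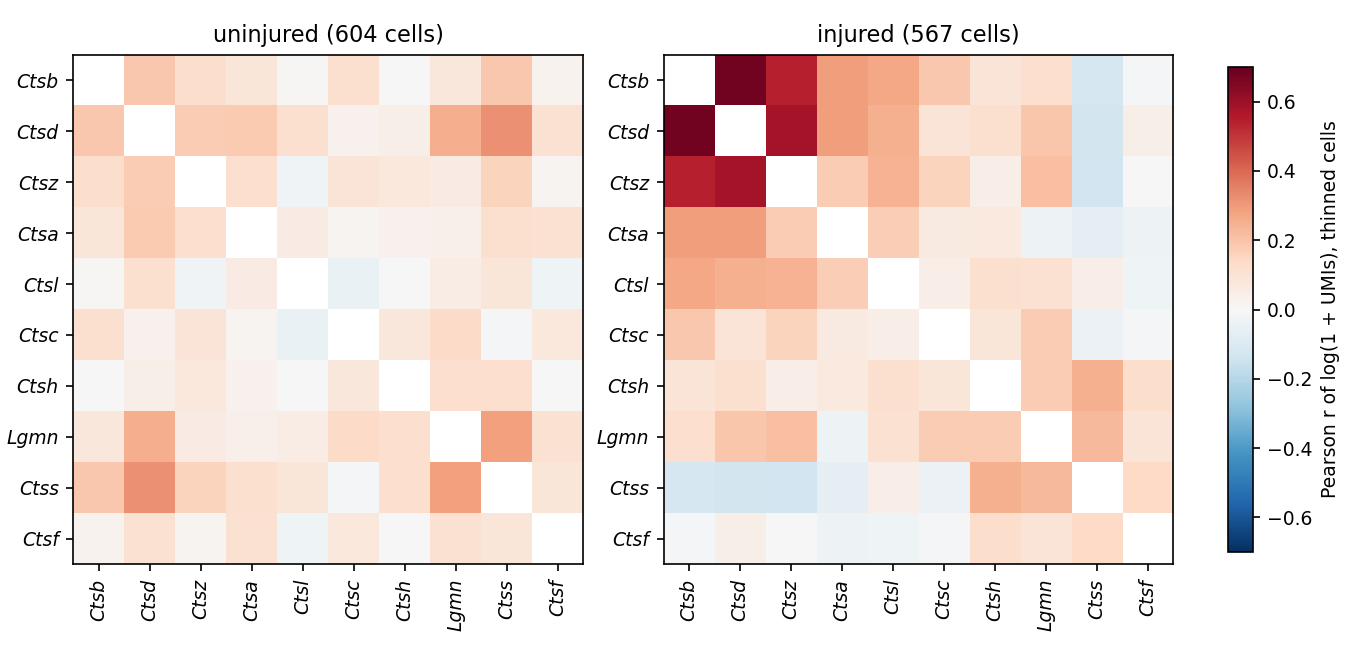
Pearson r between members over cells thinned to 1500 UMIs, in the uninjured (left, 604 cells) and injured (right, 567 cells) library; red is positive, blue negative and the diagonal is left blank. Ctsb, Ctsd and Ctsz form a red block in injured cells (r 0.54 to 0.67) that is pale in uninjured cells (0.12 to 0.19).

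Over the 14 sums of a cluster in a library with at least 20 cells, each member was compared with 1263 other genes on the scale of log2(CPM + 10). The genes most like Ctsb were Spp1 (r = 0.98), Fxyd5 (0.97) and Igf1 (0.95). Those most like Ctsz were Igf1 (0.98), Plin2 (0.96) and Ctsb itself (0.95). For Ctsd they were Ucp2 (0.95), Mydgf (0.91) and Tmed3 (0.91), and for Ctsc Ch25h (0.92), Serbp1 (0.86) and Gusb (0.85). Ctss was most like Lag3 (0.94), Sepp1 (0.94) and Rgs10 (0.93), and Ctsf most like Ypel3 (0.97), Sepp1 (0.95) and Ecscr (0.93). The highest r was smaller for Lgmn (Txnip, 0.84), Ctsa (Pld3, 0.83), Ctsl (Serp1, 0.80) and Ctsh (Pdcd10, 0.79). The clusters share 2 libraries and were built from many of these genes, so these values are descriptions.

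Of the inhibitors of these enzymes, Cst3 (log2 −2.09) and Cst7 had larger absolute log2 ratios than any member, and Cstb did not. Cst3, which encodes the secreted inhibitor cystatin C, had 3.73 UMIs for each UMI of the 7 papain-family members in uninjured cells and 0.695 in injured cells. That ratio was 0.275 in injured cluster 4 and 0.272 in cluster 9, and between 2.63 and 5.26 over the uninjured clusters. Injured cells of cluster 2, whose Ctss and Ctsd ratios to uninjured cells had intervals spanning 0, had 1.32 Cst3 UMIs per papain-family UMI. Cst7, the inhibitor cystatin F that acts inside the endosome and lysosome, was at 44.9 and 433 CPM (log2 3.27, 2.97 to 3.59), and Cstb, the cytosolic inhibitor stefin B, at 372 and 625 CPM (log2 0.75, 0.63 to 0.87). Ctla2a and Ctla2b, which encode proteins like the propeptide of cathepsin L, were at log2 4.13 (3.34 to 5.06) and 1.10 (0.77 to 1.44). In the inhibitor list, 8 genes were measured: 3 had ratios of 2-fold or more towards injured and 1 towards uninjured cells (median log2 ratio 0.82). Of all measured genes 7.22% and 11.5% did so.

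Other lysosomal genes were counted as lists. Of all 9066 measured genes, 7.22% passed 2-fold upwards and 11.5% downwards. Among 8 other lysosomal proteases 2 passed 2-fold upwards and 0 downwards (median log2 0.16). These were the dipeptidyl peptidase gene Dpp7 at 1.41 (1.08 to 1.76) and Ctse, a further cathepsin. Ctse had only 5 uninjured and 19 injured UMIs, at 1.36 with an interval spanning 0 (−0.11 to 3.14). Ctso, also a cathepsin, was at −0.69 (−0.98 to −0.40). Of 25 glycosidases, sulfatases, lipases and their activators, 3 were past 2-fold upwards and 3 downwards (median −0.01). Gusb, beta-glucuronidase, was at 1.19 (1.06 to 1.33) and the lysosomal phospholipase gene Pla2g15 at −1.35 (−1.55 to −1.15). Of 10 lysosomal membrane genes the tetraspanin gene Cd63 (2.09, 1.99 to 2.18) was the only one past 2-fold (median 0.02). Of 15 proton pump genes, which acidify the lysosome, 0 were past 2-fold either way (median 0.44), and Atp6v1b2 was at 0.90 (0.66 to 1.15). For mannose-6-phosphate tagging, sorting and retrieval, 15 genes were measured and 1 passed 2-fold in each direction (median 0.13), both with under 50 UMIs in each library. The retromer gene Vps29 was at 0.98 (0.77 to 1.19).

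Regulators and partners had lower medians. For the counts below, 11.5% of all 9066 measured genes passed 2-fold downwards and 7.22% upwards. Of 3 measured genes of the MiT/TFE factors, which bind lysosomal gene promoters, Tfeb was at −1.08 (−1.67 to −0.50), Tfe3 at −0.43 (−0.70 to −0.17) and Mitf at 0.03 (−0.48 to 0.55). Among 10 substrates and partners in the endosome 4 passed 2-fold downwards and 0 upwards (median −0.51). They were the MHC class II genes H2-Aa (−4.22, −5.02 to −3.51) and H2-Ab1 (−2.29, −2.61 to −1.99), the invariant chain gene Cd74 (−1.37, −1.48 to −1.26) and Unc93b1, which carries Toll-like receptors to the endosome (−1.03, −1.12 to −0.94). H2-Aa had 214 uninjured and 17 injured UMIs. H2-Ab1 and Cd74 were among the 10 leading genes of cluster 9, and the part of single clusters in these ratios was not tested. The tissue digestion response was also lower in the injured library, with 9 of 12 genes past 2-fold downwards and 0 upwards (median −1.11), among them Jun at −2.05 (−2.14 to −1.96). Its part in the members' values was not tested.

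In GRCm38 with GENCODE M21, all 10 members are annotated as protein-coding. The most counted ones lie at chr3:95526786-95556403 (Ctss), chr7:142375911-142388038 (Ctsd, minus strand), chr12:102394084-102439813 (Lgmn, minus strand), chr14:63122462-63145923 (Ctsb) and chr2:174427493-174439039 (Ctsz, minus strand). The others lie at chr19:4855130-4860918 (Ctsf), chr7:88278085-88310888 (Ctsc), chr2:164832873-164841032 (Ctsa), chr9:90054152-90076089 (Ctsh) and chr13:64359337-64370890 (Ctsl, minus strand). Ctsb, Ctsz, Ctsa and Ctsc overlap genes of the other strand that had 16 to 78 UMIs in either library. Ctsd, Ctsl and Ctss each overlap a same-strand gene model that is not among the genes counted here.

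RefSeq promoter windows (GRCm38.p6) were at hand for 8 members in 10 windows, and 250 bases before each start were searched for CACGTG, the core of the motif that MiT/TFE factors bind, which reads the same on both strands. It stood in 5 of the 10 windows, 1 window each of 5 members, and in 6.02% of all 32851 windows of this length. Ctsa and Lgmn have 2 windows each, and the window at the GENCODE start of the gene holds no core in either. The RefSeq starts of the windows with a match all lie inside the GENCODE gene, also those of Ctsd and Ctsf, given below as the start. So do the matches of Ctsa, Lgmn and Ctsl and the Ctsd match nearer the start, while the Ctsf match and the other Ctsd match lie upstream of the gene. The extended form TCACGTGA stood in 1 window each of Ctsa and Ctsd and in 0.785% of all windows. The matches are shown first, 30 bases each, with distances to the RefSeq start of their own window, 5′ to 3′ on the gene's strand with the core in capitals, because both members that were higher (Ctsd, Ctsl, Ctsa) and members that were lower by CPM (Ctsf, and Lgmn, whose direction turned with DESeq2 factors) carry it. A match is a description of these letters and no sign of binding.
Ctsd, core 98 bases before the start, chr7:142387908-142387937, minus strand: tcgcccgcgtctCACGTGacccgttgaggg
Ctsd, core 245 bases before the start, chr7:142388048-142388077, minus strand: tccccCACGTGacctgtatccagtcattct
Ctsa, core 12 bases before an internal RefSeq start, chr2:164833743-164833772, plus strand: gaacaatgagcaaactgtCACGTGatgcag
Ctsl, core 236 bases before an internal RefSeq start, chr13:64370739-64370768, minus strand: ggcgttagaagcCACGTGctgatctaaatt
Ctsf, core 79 bases before the start, chr19:4855074-4855103, plus strand: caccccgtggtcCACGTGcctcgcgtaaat
Lgmn, core 49 bases before an internal RefSeq start, chr12:102439124-102439153, minus strand: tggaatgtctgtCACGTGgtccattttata

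The windows of Ctsc, Ctss and Ctsz, 1 each, held no CACGTG. Those of Ctss and Ctsz are printed whole, as the promoters of a member that was lower and of a member that was higher in the injured library. They have a G and C content of 44.8% (Ctss) and 58.8% (Ctsz).
Ctss, chr3:95526536-95526785, plus strand: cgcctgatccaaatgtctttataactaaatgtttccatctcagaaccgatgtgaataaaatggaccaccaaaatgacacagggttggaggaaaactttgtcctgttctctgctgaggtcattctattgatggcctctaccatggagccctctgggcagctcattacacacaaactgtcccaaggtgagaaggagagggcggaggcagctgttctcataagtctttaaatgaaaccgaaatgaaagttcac
Ctsz, chr2:174439040-174439289, minus strand: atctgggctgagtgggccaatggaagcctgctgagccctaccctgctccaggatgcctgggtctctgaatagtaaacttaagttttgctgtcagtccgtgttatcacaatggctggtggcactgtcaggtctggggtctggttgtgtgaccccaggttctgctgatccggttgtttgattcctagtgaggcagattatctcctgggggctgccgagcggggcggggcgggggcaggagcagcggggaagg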

How the data were processed

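The deposited values are UMI counts per gene and barcode, as raw whole numbers. STAR, Cell Ranger 2.0.1, Seurat 2.1.0 and GRCm38.p5 (mm10) are named in the submitters' processing notes. Their roles, the gene annotation and any barcode filter were not given in the sources used here. Barcodes under 200 genes or over 10% mitochondrial UMIs were dropped, which removed 10 of 705 uninjured and 3 of 580 injured barcodes. UMIs were summed per library and scaled to CPM. Intervals are exact at the 95% level: Poisson for levels, Clopper-Pearson for shares, and for ratios the conditional interval from both Poisson counts. Only the ratio interval was tested on simulated data. Those counts were drawn as Poisson, which the interval itself assumes, so counts that vary more than Poisson were not covered. Genes with at least 20 UMIs over both libraries were measured. With 1 library per group no test was made.

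Clustering used scanpy 1.11.5: counts scaled to 10000 per cell, 2000 variable genes without the members, 20 principal components, 15 neighbours and Leiden resolution 0.8. Scrublet marked 10 uninjured and 11 injured doublets, which were kept and left out as an alternative. Scaling alternatives used edgeR 4.0.16 (TMM) and DESeq2 1.42.0. The members and gene lists were chosen with earlier results of these data known. Named were all members, up to 4 genes of each list with the largest ratio and at least 50 UMIs in 1 library plus Cst3, Cst7 and Cstb, 3 genes most like each member, and 3 leading genes per cluster; some of these are given only within the counts. In addition the monocyte and border-associated macrophage markers, P2ry12 and Ctse were named after their values were seen.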

Additional observations from a re-analysis of the deposited data

How the results depend on the processing

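The 14 alternatives changed the scaling, the barcodes kept, the weight or depth of cells or the cells included, and 2 of them, leaving out cluster 9 and leaving out barcodes with endothelial markers, were chosen after seeing the data. Of 140 values for single members 1 changed direction, Lgmn at 0.005 with DESeq2 size factors. Members past 2-fold upwards numbered 1 in place of 2 with the 20 most counted genes left out of the total, with the mean of per-cell CPM, with cells thinned to 1500 UMIs, with at most 5% mitochondrial UMIs, in microglia-like clusters alone and without cluster 9. In each of these Ctsz dropped under the line and Ctsb did not. They numbered 3 with TMM factors, DESeq2 size factors and Y-linked cells alone, where Ctsc passed as well (1.02 in Y-linked cells). Members past 2-fold downwards numbered 0 in place of 1 with DESeq2 size factors, with the mean of per-cell CPM and in microglia-like clusters alone. Against 0.37, the members' median log2 ratio was 0.52 (TMM), 0.56 (DESeq2) and 0.19 (microglia-like clusters). The difference in the share of cells with a UMI, injured minus uninjured, changed sign when cells were thinned to 2500 in place of 1500 UMIs for Ctsa (7.12 to −0.867 percentage points) and for Ctsb (2.08 to −0.367). The cause was not tested. The highest over the lowest injured cluster moved by over 1.5 times in 2 of 20 values: Ctsf from 9.18 to 4.12 times at Leiden resolution 0.4, and Ctsl from 1.37 to 3.46 times with the members kept in the clustering. Counting depth limits Ctsf most, with 458 and 301 UMIs. No paired analysis was possible because each group has 1 library.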
